A study of Mus musculus with 6 samples.

Results

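The mitochondrial pathway of apoptosis is controlled by the BCL2 family, and 10 genes of this pathway were followed in Met-1 mouse mammary carcinoma cells after induction of miR-200c. The genes were fixed by name: the pro-survival members Bcl2, Bcl2l1 (BCL-XL) and Mcl1, the effectors Bax and Bak1, the BH3-only genes Bid, Bcl2l11 (BIM), Pmaip1 (NOXA) and Bbc3 (PUMA), and the caspase inhibitor Xiap. Each had a single row among the 43548 genes of the deposited expression table, so 10 of 10 were found. Met-1 TripZ-200c cells come from a late-stage MMTV-PyMT mammary tumor of FVB/nJ background and carry a lentiviral vector that makes the miR-200c precursor, with a red fluorescent tag, when doxycycline (Dox) is present. They are a single clone, selected by flow cytometry against leaky expression and for intermediate induction. Cells without Dox received water as vehicle and cells with Dox received 1 µg/mL, both for 48 h, and mRNA was sequenced from 3 platings per group. Both groups carry the vector and neither group holds cells with an empty vector, so miR-200c and Dox itself cannot be told apart in these libraries, and p-values describe the spread between platings of 1 clone.

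BCL2, BCL-XL and MCL1 hold cells alive by binding BAX and BAK1, the proteins that open the outer mitochondrial membrane, and by binding the BH3-only proteins that set BAX and BAK1 off. Once the membrane opens, cytochrome c leaves the mitochondria and caspases are activated, and XIAP blocks these caspases directly. The ratio of pro-survival to pro-death proteins sets the threshold for death, and carcinoma cells often shift it towards survival. BCL2 and XIAP are reported targets of the miR-200 family.

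The mature miR-200c-3p of the mouse, taken from RefSeq (GRCm38.p6, chromosome 6, 124718324 to 124718346, minus strand), is shown first because its seed decides which transcripts it can pair with. The seed, bases 2 to 8, is in capitals, and 3 mature mouse miRNAs of the RefSeq table share it: miR-200b-3p, miR-200c-3p and miR-429-3p.
miR-200c-3p: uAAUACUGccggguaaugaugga
The letters CAGTATT, which pair with this seed, were searched on the sense strand of the longest 3′ UTR that GENCODE M21 annotates for each gene. They were found in Bcl2 and Xiap, with 1 match each, and in none of the other 8 genes. The window of 23 bases that lies opposite the miRNA is given below for both, written 5′ to 3′ in the direction of the transcript, with the match in capitals.
Bcl2: gaccctagaactggaCAGTATTg
Xiap: agatctttgttaaccCAGTATTg
The Bcl2 window lies on chromosome 1 at 106540492 to 106540514 (GRCm38, minus strand), starting its match 2765 bases into a 3′ UTR of 5086 bases. The Xiap window lies on chromosome X at 42106185 to 42106207 (plus strand), with its match 1216 bases into a 3′ UTR of 4672 bases. In both, the base after the match is g rather than the a that would extend it to an 8-base site. Long 3′ UTRs hold such a match often by their length. It was present in 39.5% of the 722 tested genes with a 3′ UTR between 0.8 and 1.25 times as long as that of Bcl2, in 35.9% of the 918 so matched to Xiap, and in 16.9% of all 10808 genes tested that had an annotated 3′ UTR. Bcl2l11, whose 3′ UTR is 4218 bases long, held no match to bases 2 to 8, while 34.5% of 1135 tested genes of like length did. It did hold 1 match to bases 2 to 7 followed by A, a form present in 11.6% of the 10808 genes. Those genes had a median 3′ UTR of 1386 bases, and the share at like length was not computed for this form. Since Bcl2 and Xiap were known as reported targets when the 10 genes were chosen, their matches are a description and not a separate result.

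**Figure D1:**
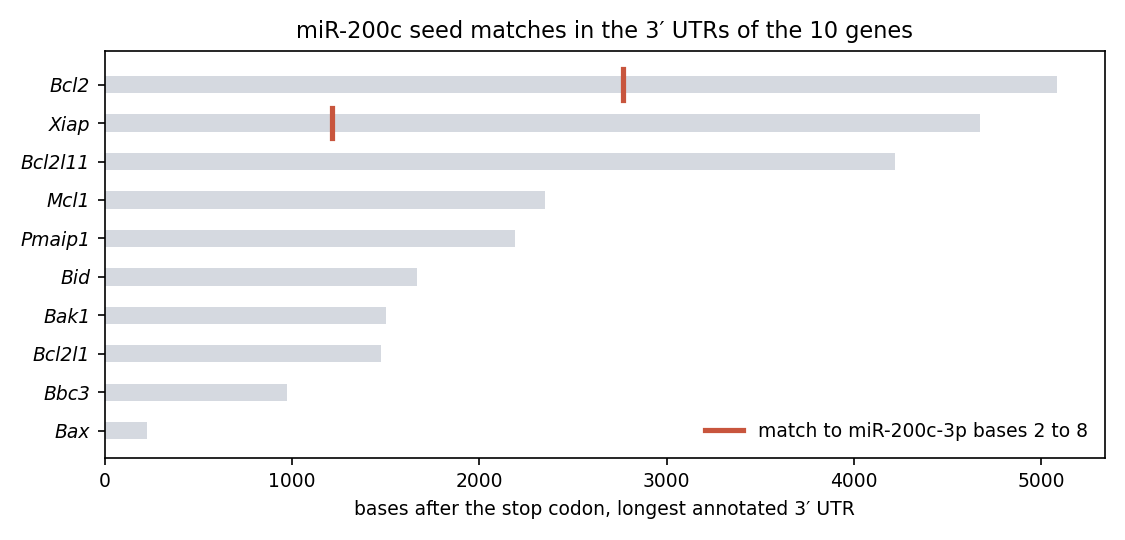
Bars give the length in bases of the longest annotated 3′ UTR of each of the 10 genes, measured from the stop codon, and red marks show matches to bases 2 to 8 of miR-200c-3p. Bcl2 (match at base 2765) and Xiap (at base 1216) hold the only marks, and they also have the longest bars.

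The depth of the libraries could only be estimated indirectly. Expression was deposited as FPKM, fragments per kilobase of transcript scaled to the mapped reads of the library, so read numbers are not known. The lowest values step by the worth of 1 read and place the relative depth of the 6 libraries between 0.916 and 1.49 of the first library without Dox. The Mir200c gene itself was listed at 0 in all 6 libraries, so the induction was checked on its targets: Zeb2, a transcription factor that represses epithelial genes, went from 29.3 ± 1.43 to 8.29 ± 0.661 FPKM (SD, n = 3 each). Of 8 epithelial markers 4 reached 1 FPKM in some library and 2 were at 0 throughout, and their summed level was 135 to 145 FPKM without Dox and 644 to 681 FPKM with Dox. Summed mesenchymal markers were at 3874 to 4352 FPKM without Dox and 3043 to 3487 FPKM with Dox, where 1 library of each group lacks a value for Fn1. Of these 5 markers 3 reached 1 FPKM, while Acta2 was at 0. Most of the sum was Vim, with means of 3961 FPKM without Dox and 3104 FPKM with Dox. Pdgfrb was also lower with Dox (32.4 and 15.5 FPKM), whereas Fn1 was slightly higher (263 and 274 FPKM). Of 5 leukocyte markers only Cd68 reached 1 FPKM, with Cd3e at 0 and Ptprc at most 0.161 FPKM. Of 4 endothelial markers only Cdh5 reached it, and of 3 adipocyte markers only Fabp4, which went from 12.7 ± 1.44 to 6.82 ± 1.57 FPKM (SD, n = 3 each), with Adipoq and Plin1 at 0. The part of these marker shifts in the results that follow was not tested. In bulk libraries fewer cells of a type and less RNA per cell cannot be told apart.

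All 10 genes were expressed, with means over the 6 libraries from 5.38 FPKM for Pmaip1 to 162 FPKM for Bcl2l1, a 30.1-fold span. Because FPKM is scaled to length, levels can be set side by side. Without Dox the order from the top was Bcl2l1, Mcl1, Bak1, Bax, Bid, Xiap, Bbc3, Bcl2, Bcl2l11 and Pmaip1. The 3 values of Bcl2l1 overlapped those of Mcl1, and the 3 values of Bbc3 overlapped those of Bcl2, whereas the other neighbours did not overlap. With Dox the first 8 places were the same, Pmaip1 stood above Bcl2l11 with overlapping values, and no other neighbours overlapped. Among Bcl2, Bcl2l1 and Mcl1, Bcl2 was therefore the minor transcript. It made up 5.31 ± 0.0621% of their summed FPKM without Dox and 4.23 ± 0.0842% with Dox (SD, n = 3 each). The pro-survival Bcl2l2, outside this sum, stood above Bcl2, with means of 22.2 FPKM without Dox and 23.6 FPKM with Dox.

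**Figure D2:**
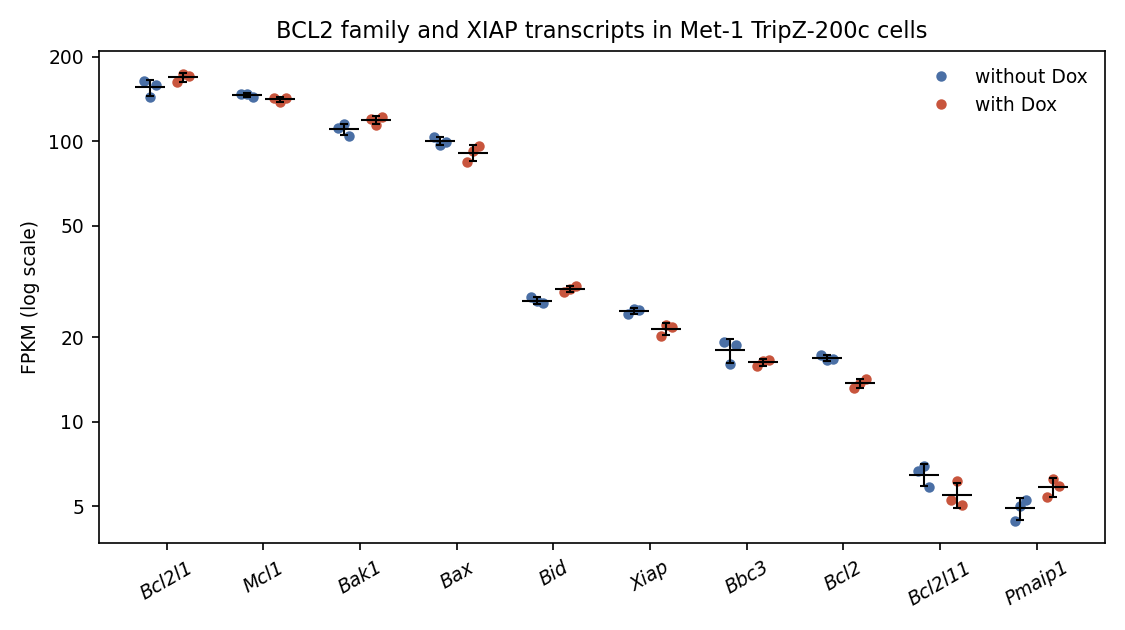
FPKM on a log scale for the 10 genes, ordered by their mean without Dox, with 1 point per library (blue without Dox, red with Dox), a horizontal line at the mean and bars of 1 SD (n = 3 each). Bcl2l1, Mcl1, Bak1 and Bax lie at 84.0 FPKM or above in every library, and the red and blue points of Bcl2 and of Xiap are apart.

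Whether these genes differed between cells with and without Dox was tested with limma on log2(FPKM + 0.1) across the 12879 genes that averaged 1 FPKM or more, adjusted by the Benjamini-Hochberg method. Bcl2 was the 1 gene of the 10 with an adjusted p under 0.05, and it fell; 0 of the 10 rose. Over all genes tested 15.0% were called, 7.06% as higher and 7.97% as lower, so 1 of 10 is not above the background. Unadjusted p-values under 0.05 were found for 4 of the 10 genes and for 29.2% of all genes tested. The 3 values with Dox lay on 1 side of the 3 values without Dox in 6 of the 10 genes, 4 lower and 2 higher, a separation found in 35.0% of all genes with complete values. None of the 10 changed by 1.5-fold.

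Bcl2 (ENSMUSG00000057329, chromosome 1, 106538178 to 106714274) measured 17.3, 16.6 and 16.8 FPKM in the untreated libraries, against 13.2, 13.7 and 14.2 FPKM after Dox. All libraries with Dox were below all libraries without. The log2 change was -0.30 (standard error 0.0613, 95% interval -0.44 to -0.16, limma adjusted p = 0.0189, n = 3 each), which is a change of -18.8%. Of its longest transcript, 7.84% is shared with the antisense gene D630008O14Rik. A difference at least that large was seen in 20.5% of all genes tested. The fold change stayed between -0.32 and -0.28 when any 1 of the 6 libraries was left out, and the limma adjusted p was then between 0.0502 and 0.0640. Each of the 6 omissions therefore ended the call, whether the library left out was with or without Dox. Over all genes tested the same omissions left 1048 to 1359 calls, against 1935 with all libraries.

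Xiap (ENSMUSG00000025860, chromosome X, 42059679 to 42109656), which blocks caspases downstream of the mitochondria, measured 24.1, 25.3 and 25.0 FPKM in the untreated libraries, against 20.2, 22.1 and 21.8 FPKM after Dox. Here too the groups did not overlap. The log2 change was -0.21 (standard error 0.0586, 95% interval -0.35 to -0.08), and the adjusted p of 0.0517 from limma was just above the threshold. It was under the threshold in 2 of 15 refits: when genes needed a mean of 5 FPKM (0.0448) and when libraries were scaled to the same median (0.0469). In the other 13 the limma or unmoderated adjusted p stayed above the threshold. By limma it was 0.0836 to 0.137 when any 1 library was left out, and 0.0851 with a replicate block.

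The other pro-survival transcripts, which were also the most abundant, did not pass the test. Mcl1, which encodes a short-lived protein, measured 147, 147 and 143 FPKM in the untreated libraries, against 142, 138 and 143 FPKM after Dox. Its values did not overlap, although the highest value with Dox (142.9) came within 1 FPKM of the lowest without (143.1), and the log2 change was -0.05 (95% interval -0.12 to 0.03, limma adjusted p = 0.380). Bcl2l1 measured 164, 144 and 158 FPKM in the untreated libraries, against 162, 174 and 170 FPKM after Dox, with overlap. Its log2 change was 0.12 (95% interval -0.01 to 0.25, limma adjusted p = 0.195). The summed FPKM of Bcl2, Bcl2l1 and Mcl1 was 318 ± 9.95 without Dox and 323 ± 5.05 with Dox (SD, n = 3 each), and these sums overlapped.

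The effectors differed in direction and neither passed. Bax measured 103, 96.7 and 99.5 FPKM in the untreated libraries, against 84.0, 92.5 and 96.0 FPKM after Dox. The groups were separate by less than 1 FPKM, and the log2 change was -0.14 (95% interval -0.27 to -0.004, limma adjusted p = 0.161). Bak1 measured 112, 115 and 104 FPKM in the untreated libraries, against 120, 114 and 122 FPKM after Dox. The groups overlapped, and the log2 change was 0.11 (95% interval -0.002 to 0.22, limma adjusted p = 0.178). Summed, Bax and Bak1 came to 210 ± 5.75 FPKM without Dox and 209.7 ± 7.25 FPKM with Dox (SD, n = 3 each). The longest transcript of Bax shares 17.6% of its length with Gm45808, a gene on the same strand, so part of its reads cannot be assigned with certainty. That of Bak1 shares 25.8% with other genes, of which the largest part (18.3%) is with Ggnbp1 on the opposite strand. Reads in the part shared with Ggnbp1 can be assigned only if counting used strand, which is not given.

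Of the 4 BH3-only genes, 2 had positive and 2 had negative fold changes, and none passed. Bid, which links death receptors to the mitochondria after cleavage by caspase-8, measured 27.8, 26.8 and 26.4 FPKM in the untreated libraries, against 29.0, 29.7 and 30.4 FPKM after Dox. The groups did not overlap, and the log2 change was 0.14 (95% interval 0.02 to 0.25, limma adjusted p = 0.122). The longest transcript of Bid shares 26% of its length with Bcl2l13 on the opposite strand. Pmaip1, whose product binds MCL1, measured 4.43, 5.02 and 5.28 FPKM in the untreated libraries, against 5.38, 6.28 and 5.92 FPKM after Dox. The groups were separate by about 0.1 FPKM, and the log2 change was 0.25 (95% interval -0.03 to 0.53, limma adjusted p = 0.219). Bcl2l11, whose product binds all the pro-survival proteins, measured 6.66, 6.96 and 5.84 FPKM in the untreated libraries, against 5.27, 6.15 and 5.07 FPKM after Dox. Both groups overlapped, and the log2 change was -0.24 (95% interval -0.53 to 0.05, limma adjusted p = 0.256). Bbc3, a p53 target, measured 19.2, 16.0 and 18.7 FPKM in the untreated libraries, against 15.8, 16.5 and 16.6 FPKM after Dox, again with overlap. Its log2 change was -0.14 (95% interval -0.33 to 0.06, limma adjusted p = 0.335). For the 9 genes that did not pass, the unadjusted 95% intervals differed in width from gene to gene, with the lowest end at -30.5% (Bcl2l11) and the highest at 44.6% (Pmaip1). That of Mcl1 ran from -8.26% to 1.96%, and those of Xiap, Bax and Bid did not include 0.

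**Figure D3:**
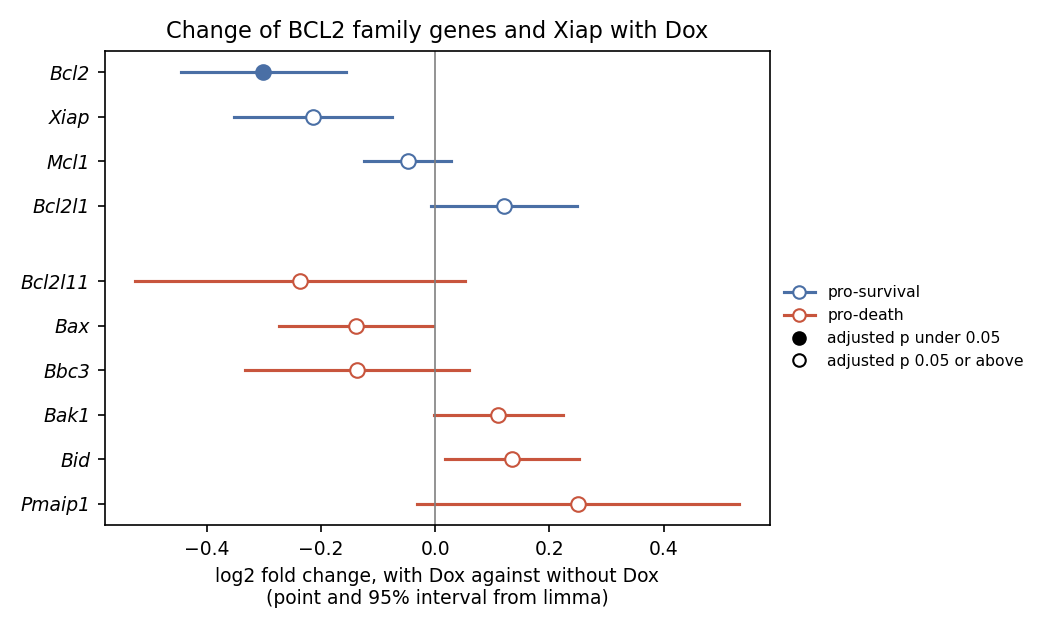
Log2 fold change of each gene with Dox against without Dox, with its 95% interval from limma, for pro-survival genes (blue, above) and pro-death genes (red, below). Only Bcl2 is filled, for an adjusted p under 0.05, and all points lie between -0.30 and 0.25.

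Pro-survival and pro-death genes were then set side by side. Of the 4 pro-survival genes (Bcl2, Bcl2l1, Mcl1 and Xiap), 3 had negative fold changes and the median was -0.13. Of the 6 pro-death genes (Bax, Bak1, Bid, Bcl2l11, Pmaip1 and Bbc3), 3 were negative and 3 positive, with a median of -0.01 that ranged from -0.03 to 0.02 over the alternative fits, against a median of 0.004 over all 12879 genes. Ratios of transcripts within a library moved in both directions. Bax relative to Bcl2 was 5.97, 5.84 and 5.94 without Dox and 6.35, 6.75 and 6.78 with Dox, without overlap. Bak1 relative to Mcl1 was 0.760, 0.779 and 0.728 without Dox and 0.847, 0.830 and 0.854 with Dox, also without overlap. Bax relative to the abundant Bcl2l1 was lower with Dox, at 0.631, 0.671 and 0.628 against 0.517, 0.532 and 0.564. Bak1 relative to Bcl2l1 and Bcl2l11 relative to Bcl2 overlapped between the groups. The sign of a pro-death to pro-survival ratio thus depended on which pair of genes was taken, and no ratio was tested.

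**Figure D4:**
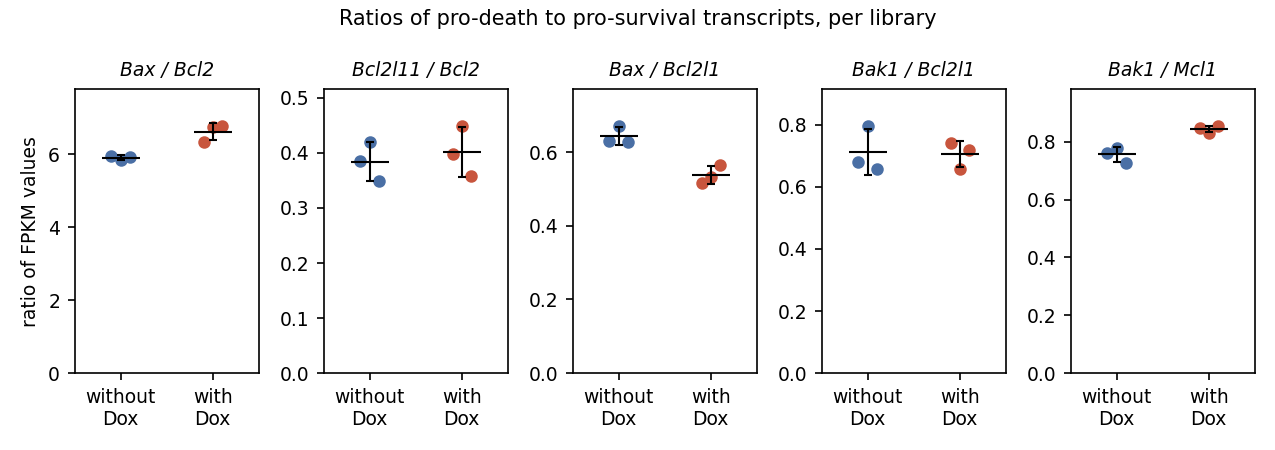
Ratio of the FPKM of a pro-death gene to that of a pro-survival gene in each library (points), with the mean and 1 SD (n = 3 each), on axes that start at 0. Bax over Bcl2 and Bak1 over Mcl1 are higher with Dox, Bax over Bcl2l1 is lower, and the remaining ratios overlap.

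The rest of the apoptotic machinery was described through lists of 72 further genes, of which 54 passed the filter on low values. Of these 54, 11 rose and 3 fell (adjusted p under 0.05 from limma), or 25.9% against 15.0% of all genes tested, and 12 of the 14 changed by less than 1.5-fold. The shares to set beside the calls of each list below are 7.06% higher and 7.97% lower, over all genes tested. The median log2 fold change of the 54 genes was 0.02. Leaving out 1 library gave 8 to 12 calls, with 8 when Minus Dox replicate 2, Plus Dox replicate 2 or Plus Dox replicate 3 was omitted. Among other BCL2 family genes none passed. The pro-survival Bcl2l2 (BCL-W) was at 22.2 ± 2.70 FPKM without Dox and 23.6 ± 1.88 FPKM with Dox (SD, n = 3 each), and Bcl2a1a, Bcl2a1b, Bcl2a1c, Bcl2a1d and Bcl2l10 were listed at 0 in all libraries. Of the pro-death genes Bok, Bad and Bmf were tested, and Bad, the highest, was at 38.3 ± 0.369 and 37.5 ± 2.37 FPKM (SD, n = 3 each). Bok, a relative of BAX and BAK1, was at 3.15 ± 0.860 and 1.77 ± 0.253 FPKM (SD, n = 3 each) without overlap, a log2 change of -0.78 that did not pass (limma adjusted p = 0.0795). Bik, Hrk and Bcl2l14 stayed at 0.229 FPKM or below. In the group of genes related to BCL2 by sequence or by binding, 0 of 4 passed.

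Members of the inhibitor of apoptosis family and their antagonists gave 1 call in 6 genes tested. Birc5 (survivin), which inhibits apoptosis and serves in cell division, rose from 484 ± 9.07 to 540 ± 24.3 FPKM (SD, n = 3 each), a log2 change of 0.16 (standard error 0.0374, limma adjusted p = 0.0332). All 6 log2 changes in this list of inhibitors and antagonists were positive, from 0.006 to 0.16, but only that of Birc5 passed. Positive changes were also found in 6541 of the 12879 genes tested. That of Xiap was negative.

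Downstream of the mitochondria 3 of 11 genes rose and 0 fell. Dffa, which encodes the inhibitor and chaperone of the caspase-activated DNase, rose from 15.1 ± 0.655 to 21.2 ± 0.388 FPKM (SD, n = 3 each), a log2 change of 0.49 (standard error 0.0599, limma adjusted p = 0.00263), though 26% of its longest transcript is shared with other genes. Aifm1, a mitochondrial flavoprotein with a role in respiration and in caspase-independent death, rose from 59.1 ± 0.767 to 69.2 ± 0.678 FPKM (SD, n = 3 each), a log2 change of 0.23 (limma adjusted p = 0.00735). The directions were not shared by the whole list, in which 5 genes had positive and 6 had negative fold changes.

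Of 8 genes of the death receptor pathway tested, 1 rose and 1 fell. Casp8, the caspase that starts this pathway and cleaves BID, rose from 26.6 ± 1.53 to 31.5 ± 1.23 FPKM (SD, n = 3 each), a log2 change of 0.24 (limma adjusted p = 0.0403). Tnfrsf1a, the main TNF receptor, fell from 109.7 ± 2.01 to 100.5 ± 0.721 FPKM (SD, n = 3 each), a log2 change of -0.13 (limma adjusted p = 0.0431). With a replicate block neither Casp8 nor Tnfrsf1a kept its call (limma adjusted p = 0.0941 and 0.106).

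In the list of p53 (Trp53) and 13 of its targets and regulators, 2 genes rose and 2 fell. Perp, a p53 target that encodes a desmosomal protein of epithelia, rose from 159.5 ± 5.39 to 226 ± 12.1 FPKM (SD, n = 3 each), a log2 change of 0.50 (limma adjusted p = 8.70e-04). Btg2, an antiproliferative gene, rose from 3.78 ± 0.315 to 6.32 ± 0.803 FPKM (SD, n = 3 each), a log2 change of 0.72 (limma adjusted p = 0.0144). Sesn1, a stress-induced inhibitor of mTORC1 signalling, fell from 11.1 ± 0.760 to 7.08 ± 0.316 FPKM (SD, n = 3 each), a log2 change of -0.64 (limma adjusted p = 0.00402). Phlda3, an inhibitor of AKT, fell from 90.2 ± 5.28 to 75.6 ± 3.21 FPKM (SD, n = 3 each), a log2 change of -0.25 (limma adjusted p = 0.0241). Trp53 itself was at 219.7 ± 12.9 FPKM without Dox and 240.5 ± 4.52 FPKM with Dox (SD, n = 3 each), and did not pass (limma adjusted p = 0.110). The 4 called targets thus split evenly, and Bbc3 and Pmaip1, the BH3-only genes that p53 induces, did not pass.

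Genes of the integrated stress response, which can induce BH3-only genes without p53, gave 4 higher and 0 lower calls among 8 tested. Over all genes tested these shares were 7.06% and 7.97%. Each of the 4 changed by less than 1.5-fold, and Asns lost its call with the replicate block (limma adjusted p = 0.0984). Atf4, the central transcription factor of this response, rose from 341 ± 5.72 to 381 ± 2.55 FPKM (SD, n = 3 each), a log2 change of 0.16 (limma adjusted p = 0.00829). Its targets Trib3 and Asns rose by 0.28 and 0.11 on the log2 scale (limma adjusted p = 0.0179 and 0.0351), and Ppp1r15a, which restores translation, rose by 0.51 (limma adjusted p = 0.0165). Ddit3 (CHOP), which links this response to cell death, was at 68.6 ± 1.59 FPKM without Dox and 61.0 ± 3.23 FPKM with Dox (SD, n = 3 each), a log2 change of -0.17 that did not pass (limma adjusted p = 0.0629).

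**Figure D5:**
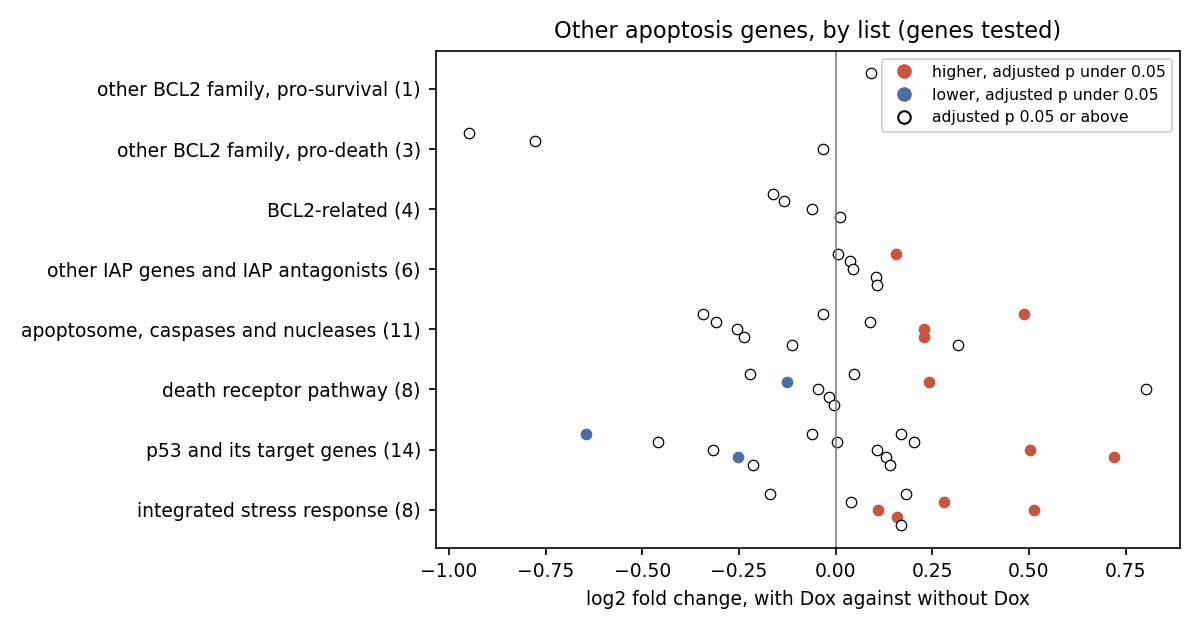
Each point is a tested gene placed by its log2 fold change with Dox against without Dox, in rows by list with the number of genes tested in brackets; Sesn2 stands in 2 lists. Filled points passed the threshold (red higher, blue lower), 11 higher and 3 lower in all, and all but 2 of them lie within a 1.5-fold change.

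The seed letters found in Bcl2 and Xiap were also present in 11 of the 54 tested list genes. Of these 11, 8 had negative fold changes, with a median of -0.11, and only Sesn1 passed. The caspase-8 inhibitor Cflar (c-FLIP), with 1 match, went from 37.7 ± 2.91 to 32.3 ± 1.82 FPKM (SD, n = 3 each) without passing (log2 fold change -0.22, limma adjusted p = 0.0908), and the p53 inhibitor Mdm4, with 3 matches, had a log2 change of -0.06 (limma adjusted p = 0.654). The 43 list genes without a match had a median of 0.04, with 11 higher and 2 lower calls. Over all tested genes with an annotated 3′ UTR, 16.4% of the 1824 with a match were called lower and 4.33% higher, against 7.40% and 8.55% of the 8984 without. Genes with and without a match were not paired by 3′ UTR length here, although longer 3′ UTRs hold a match more often. These shares and medians are a description across genes, which are not independent replicates.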

How the data were processed

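mRNA was sequenced by the authors as single 50 bp reads from TruSeq Stranded libraries, mapped with gSNAP to the mouse genome (GRCm38.p6; an FVB/NJ assembly is also named) and quantified with Cufflinks, and their FPKM values per gene and library were deposited. Whether counting used strand is not given in the sources used here. The deposited table also holds the authors' group means, fold score, p-values and q-values, which were not used.

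The table has 43611 rows; 63 repeats of an identifier were dropped, keeping the row with the highest mean. A placeholder in 6 cells of 4 genes was treated as missing. All 37 mitochondrial genes were at 0, so a listed 0 need not mean absence. The groups were compared by limma 3.58.1 under R 4.3.3, taking log2(FPKM + 0.1) as the response (lmFit, eBayes with a trend, group as the only term), as a moderated form of the study's ANOVA; fold changes on this scale understate those of low genes. The model was tested on simulated data. FPKM removes depth, so no counting intervals are given. Coordinates and 3′ UTRs are those of GENCODE M21. Transcripts were compared with BLAST 2.17.0 (95% identity over at least 50 bases).

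The 10 genes, the lists and the tests were chosen with earlier results of these data known. Named genes are the 10, list genes that passed, and at most 2 others per list with the highest mean; Mdm4, Bmf and the family genes at or near 0 were named after their values were seen. Some list and marker genes that the rule would name are counted but not reported here by name. Alternatives were another pseudocount or filter, 2 scalings, limma without the trend, an unmoderated model, a replicate block, stricter thresholds and the omission of each library.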

Additional observations from a re-analysis of the deposited data

How the results depend on the processing

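The direction of all 10 genes held in all 15 refits, and Bcl2 passed in 8 of them. The number of the 10 genes that passed was 2, with Xiap added, at a minimum mean of 5 FPKM and with scaling to the same median. By limma it was 0 with the replicate block (2 genes at an unadjusted p under 0.05), and 0 in each of the 6 fits without 1 library (2 to 5 genes at an unadjusted p under 0.05). It was also 0 at an adjusted p of 0.01 and with a minimum change of 1.5-fold. Same-numbered libraries did not all deviate together (correlations of 0.0287, 0.0359 and -0.00759), and not every library correlated best with its own number. The replicate block was therefore not taken as a pairing. With it Bcl2 had a limma adjusted p of 0.0642, and 8 of the 14 list genes kept their call. These were Dffa, Aifm1, Perp, Btg2, Sesn1, Atf4, Trib3 and Ppp1r15a. Birc5, Casp8, Tnfrsf1a, Phlda3 and Asns were among those that lost it. The list count was 9 both without the trend and in the unmoderated model, 5 at an adjusted p of 0.01, 2 with a minimum change of 1.5-fold and 8 to 12 without 1 library; it was 8 without Minus Dox replicate 2, Plus Dox replicate 2 or Plus Dox replicate 3. Over all genes 770 passed at an adjusted p of 0.01, 452 with a minimum change of 1.5-fold and 1048 to 1359 without 1 library, against 1935; the omission of Minus Dox replicate 2 or of any Plus Dox library moved this count by over 1.5 times. The cause was not tested. The median of the pro-death genes ranged from -0.03 to 0.02 and that of the pro-survival genes from -0.14 to -0.11. Searched as bases 2 to 7 followed by A (AGTATTA), a match was found in 1 of the 10 genes, Bcl2l11, and in neither Bcl2 nor Xiap. With 3 libraries a group and unknown read numbers, small changes of low genes such as Pmaip1 and Bcl2l11 were not detectable.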
